A study of Drosophila melanogaster with 6 samples.

Results

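Transcripts of 32 genes of DNA replication and cell division were followed in RNA from the excretory (Malpighian) tubules of Drosophila melanogaster that carried a tumour of the gut or did not. The genes were taken by FlyBase symbol from a deposited table of 17611 genes, and all 32 had a row. Of these, 18 act in S phase or in the decision to enter it and 14 in mitosis. Control flies had the genotype esg-GAL4, UAS-GFP, tub-GAL80TS /+, and tumour flies carried UAS-yki3SA/+ in addition, whose product is a constitutively active Yorkie, the growth-promoting factor of the Hippo pathway. The driver esg-GAL4 is active in progenitor cells of the midgut and the tubule, and the temperature-sensitive repressor GAL80 holds it off at 18 °C, so driver, reporter and repressor are shared by both groups and only the yki3SA transgene differs. Virgin flies were kept at 18 °C for 6 to 8 days and moved to 29 °C for 8 days. The tubules were pooled, 80 for a genotype, each group had 3 libraries, and the labels do not say whether a library is a separate pool, so the spread that enters each p-value is that between libraries and may be technical only.

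A cell that is about to copy its DNA first loads a ring-shaped helicase, the MCM complex, onto origins marked by the origin recognition complex. The kinase Cdk2 with cyclin E then starts synthesis, and the transcription factor E2f1 switches on many genes of this step. Mitosis is entered when Cdk1, bound to an A- or B-type cyclin, is released from inhibitory phosphorylation by the phosphatase string (stg). In adult tubules the large principal cells are polyploid and do not divide, and the few stem cells are mostly quiescent. The same cell cycle transcripts are abundant in the ovary, where nurse cells make them for the egg.

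Library totals lay between 34640437 and 49338340 counts, and a count of 0 thus allows a level of up to 0.0517 to 0.0911 CPM (counts per 1000000, from 3 counts, for counting error only). All CPM, these included, are scaled by the trimmed mean of M-values (TMM). Defining markers of the tubule were present: the principal cell gene Uro lay between 861 and 1896 CPM and the stellate cell gene tsh between 45.3 and 67.6 CPM in the 6 libraries, while tup, also listed for stellate cells, had at most 0.182 CPM. Tumour replicate 3 stood apart from the other libraries on the second principal component, which held 14.3% of the variance. It was at least 2 times above the highest other library for 227 of 9789 genes tested (2.32%), whereas each of the other 5 libraries stood out in this way for 48 to 91 genes. Of the 32 members, 20 were among the 227 genes, and 0 stood out in any other library. Values of tumour replicate 3 are given apart below, and results with and without it. Members and lists were chosen with earlier results of these data known. Counts of members beside shares of all genes are therefore a description. A fit without it holds 2 tumour and 3 control libraries. Since it was set apart for high values that include 20 members, falls of members in that fit are given as a description. The gene yki was at 79.6, 63.5 and 79.4 CPM in control replicates 1, 2 and 3 and at 84.3, 90.8 and 76.9 CPM in tumour replicates 1, 2 and 3, and the groups overlapped (adjusted p = 0.331, edgeR quasi-likelihood test). Counts by gene do not separate reads of the yki3SA transgene from those of the fly's own yki, so the level of either is not known.

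With all 6 libraries, only the subunits of ribonucleotide reductase rose in tumour tubules among the 32 members: RnrL 2.37-fold and RnrS 1.60-fold. No mitotic member passed the test. The groups did not overlap for 4 of the 32 members, RnrL, RnrS, geminin and E2f1, against 46.9% of all genes tested. Most other members were lower than control in tumour replicates 1 and 2 and higher than control in tumour replicate 3. In the edgeR quasi-likelihood test, adjusted over all 9789 genes at a threshold of 0.05, 2 of 18 S-phase members passed as higher and 0 as lower, and of 14 mitotic members 0 passed in either direction; at an unadjusted p under 0.05 the counts were 3 higher and 1 lower among the S-phase members and 0 among the mitotic ones. DESeq2 called 2 S-phase members higher and 1, E2f1, lower, limma-voom called 2 higher and 0 lower, and both called 0 mitotic members. Over all genes tested, 14.8% passed as higher and 13.0% as lower. In bulk RNA fewer cells of a type and less RNA per cell cannot be told apart. The median log2 fold change between tumour and control was 0.50 for the S-phase and 0.52 for the mitotic members, against 0.08 over all genes tested, but leaving out tumour replicate 3 turned both medians negative, to -0.61 and -0.81 (all genes, 0.00).

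**Figure D1:**
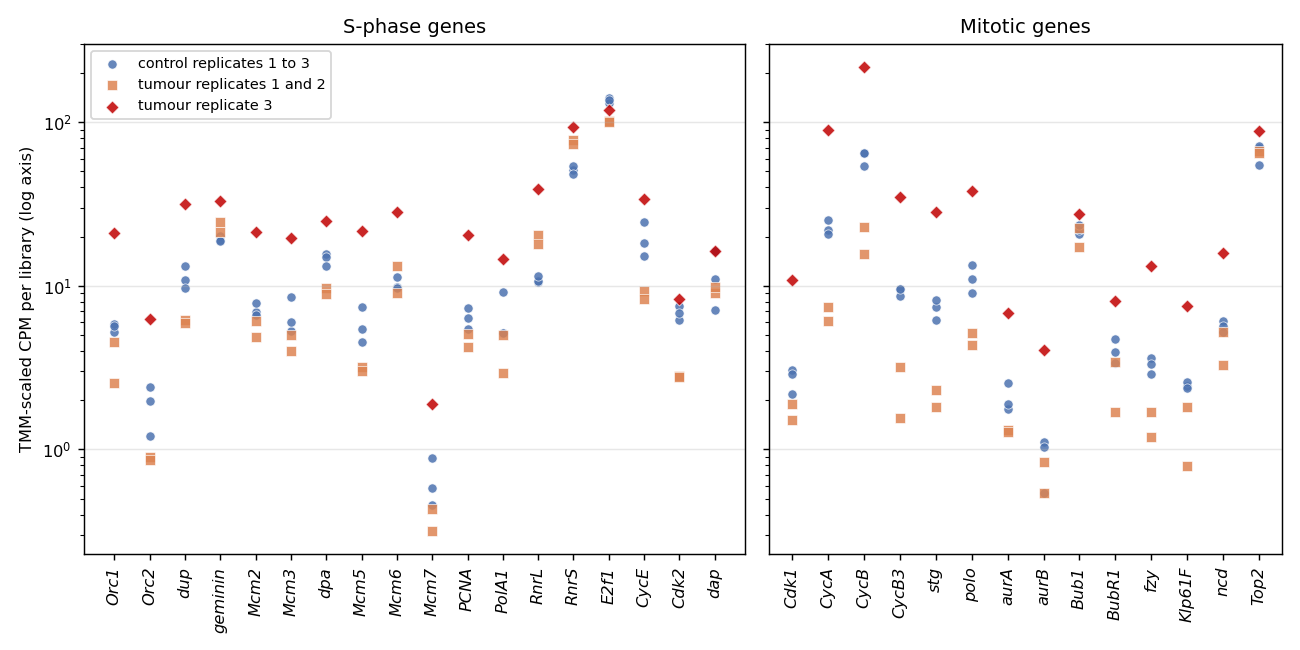
Level of each S-phase (left) and mitotic (right) gene in TMM-scaled CPM on a log axis, with 1 point per library: circles for 3 control libraries, squares for tumour replicates 1 and 2, diamonds for tumour replicate 3. The diamond is the highest of 6 points for 30 of 32 genes, all but E2f1 and dap (all genes tested, 24.2%). Both squares lie under all circles for 22 (all genes tested, 25.5%).

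Per length of annotated exon, the most abundant member in control tubules was RnrS at 32.1 ± 1.64 RPKM (CPM per kilobase of exon; SD, n = 3). After it came E2f1 at 21.1 ± 0.782, CycB at 20.1 ± 1.99, geminin at 18.3 ± 0.727 and Top2 at 12.5 ± 1.72 RPKM. The levels of E2f1 and CycB lie within their spread, as do those of CycB and geminin. The other 27 members had at most 7.75 RPKM, the level of CycA, and the subunits of the MCM helicase lay between 0.262 (Mcm7) and 4.75 RPKM (dpa, which encodes Mcm4). For Mcm7 81.7% of the exon length overlaps an antisense RNA, asRNA:CR45871, and for Cdk2 43.9% overlaps CG17267 on the other strand. No source used here says whether reads were counted by strand, so the counts of Mcm7 and Cdk2 are uncertain.

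Ribonucleotide reductase makes deoxynucleotides, the building blocks of DNA, for replication and for repair, and needs both a large subunit (RnrL) and a small one (RnrS). RnrL (FBgn0011703, chromosome 2L, 10325026 to 10327943, Ensembl BDGP6 coordinates) was at 10.6, 10.7 and 11.4 CPM in control replicates 1, 2 and 3, at 20.3 and 18.0 CPM in tumour replicates 1 and 2 and at 39.2 CPM in tumour replicate 3. All 3 tumour libraries lay above all controls, with tumour replicate 3 at 2.04 times the mean of the other tumour libraries and these at 1.76 times the control mean. The log2 fold change was 1.25 ± 0.29 (SE, adjusted p = 0.0177, edgeR). Without tumour replicate 3 it was 0.81 ± 0.15 (adjusted p = 0.0103, edgeR). The call was lost without control replicate 1, 2 or 3 (adjusted p = 0.0651, 0.056 and 0.0568, against 4.45e-04 to 0.0651 over all alternatives), where the log2 fold change lay between 1.23 and 1.28.

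RnrS (FBgn0011704, chromosome 2R, 11983145 to 11985393) was at 51.1, 53.8 and 48.6 CPM in control replicates 1, 2 and 3, at 78.1 and 73.8 CPM in tumour replicates 1 and 2 and at 93.9 CPM in tumour replicate 3. The groups did not overlap, and tumour replicate 3 was 1.20 times the next library, against 1.93 times for RnrL. The log2 fold change was 0.68 ± 0.12 (adjusted p = 0.0062, edgeR), and the call was kept in each fit without 1 library, where the adjusted p lay between 0.0111 and 0.0303. Of the remaining genes of synthesis, PCNA, the sliding clamp of the DNA polymerases, was at 7.34, 6.33 and 5.43 CPM in control, at 4.22 and 5.06 CPM in tumour replicates 1 and 2 and at 20.4 CPM in tumour replicate 3. PolA1, the catalytic subunit of the polymerase that starts new strands, was at 5.17, 9.20 and 5.16, then 2.94 and 5.03, then 14.5 CPM in the same order. Neither passed (adjusted p = 0.477 and 0.823, edgeR), and for both the tumour libraries 1 and 2 lay below every control and tumour replicate 3 above every control.

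The licensing genes had the same order of libraries. Of 10 genes, 10 were highest in tumour replicate 3, at 1.69 to 3.79 times the control mean, and 8, all but geminin and Mcm6, had both other tumour libraries below all controls. Over all genes tested 24.2% were highest in tumour replicate 3 and 25.5% had tumour replicates 1 and 2 below all controls. Orc1, the ATPase subunit of the origin recognition complex, was at 5.19, 5.87 and 5.68 CPM in control replicates 1, 2 and 3, at 4.52 and 2.56 CPM in tumour replicates 1 and 2 and at 21.1 CPM in tumour replicate 3. Orc2, of the same complex, was at 1.98, 2.41 and 1.21, then 0.898 and 0.862, then 6.24 CPM in this order. In both the tumour libraries lay on either side of the controls. Mcm2, of the helicase, was at 6.96, 7.87 and 6.65 CPM in control, at 6.12 and 4.90 CPM in tumour replicates 1 and 2 and at 21.3 CPM in tumour replicate 3. The remaining helicase subunits Mcm3, dpa, Mcm5, Mcm6 and Mcm7 ranged from 1.70 times (dpa) to 3.72 times (Mcm5) the control mean in tumour replicate 3. The mean of tumour replicates 1 and 2 was 0.533 (Mcm5) to 1.08 times the control mean (Mcm6). None of the 10 licensing genes passed with all libraries (adjusted p = 0.0951 to 0.988, edgeR; 1 higher at an unadjusted p under 0.05, geminin, and 0 with DESeq2 or limma-voom), with log2 fold changes from -0.01 (dpa) to 0.76 (Orc1).

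The loader dup, which encodes Cdt1, and its inhibitor geminin differed from each other. The level of dup was 10.9, 9.74 and 13.3 CPM in control, 6.18 and 5.96 CPM in tumour replicates 1 and 2 and 31.7 CPM in tumour replicate 3. That of geminin was 20.3, 19.1 and 18.8 CPM in control, 24.5 and 21.3 CPM in tumour replicates 1 and 2 and 32.8 CPM in tumour replicate 3, so that all tumour libraries lay above all controls. The groups did not overlap, tumour higher, for 26.8% of all genes tested, and geminin did not pass (log2 fold change 0.43 ± 0.17, adjusted p = 0.0951, edgeR). Scaled by library totals alone, which moved the median of all genes by 0.29 on the log2 scale, geminin passed (log2 fold change 0.73, adjusted p = 0.0221, against 0.0221 to 0.287 over all alternatives). Without tumour replicate 3 the log2 fold change was -0.90 ± 0.21 for dup and -0.66 ± 0.17 for dpa, given as a description only.

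Among the regulators of S-phase entry, E2f1 had another order of libraries. It was at 141, 131 and 137 CPM in control replicates 1, 2 and 3, at 102 and 100.2 CPM in tumour replicates 1 and 2 and at 119 CPM in tumour replicate 3. All tumour libraries lay below all controls, as for 20.1% of all genes tested, and the log2 fold change of -0.35 ± 0.11 did not pass (adjusted p = 0.0529, edgeR). It passed with DESeq2, with relative log expression (RLE) or upper quartile scaling, with a filter of 5 CPM in 3 libraries and without tumour replicate 3, and the adjusted p was 0.00315 to 0.77 over all alternatives. With library totals alone its log2 fold change was -0.05. CycE (FBgn0010382, chromosome 2L, 15727581 to 15748150), the cyclin that starts S phase and a known target of Yorkie in the fly, was at 24.7, 15.3 and 18.2 CPM in control, at 9.36 and 8.28 CPM in tumour replicates 1 and 2 and at 33.9 CPM in tumour replicate 3. Its partner Cdk2 was at 7.55, 6.22 and 6.80, then 2.83 and 2.77, then 8.36 CPM in the same order. CycE and Cdk2 did not pass (adjusted p = 0.857 and 0.384, edgeR). Without tumour replicate 3 their log2 fold changes were -1.14 ± 0.23 and -1.30 ± 0.24, given as a description only. The inhibitor of that kinase, dap, was at 16.4, 7.11 and 11.1 CPM in control and at 8.98, 9.80 and 16.3 CPM in tumour replicates 1, 2 and 3, and the groups overlapped.

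Among the members, CycB3, stg, CycA and CycB, all genes of mitotic entry, had the widest spread between libraries. Their highest CPM was 13.9 (CycB) to 22.3 times (CycB3) their lowest. The mitotic entry genes polo (8.83 times) and Cdk1 (7.15 times) spread less than fzy (11.1 times). CycB (FBgn0000405, chromosome 2R, 22803521 to 22806948), a partner of Cdk1, was at 64.6, 54.3 and 65.0 CPM in control replicates 1, 2 and 3, at 23.0 and 15.6 CPM in tumour replicates 1 and 2 and at 217 CPM in tumour replicate 3. Tumour replicate 3 was 3.54 times above the control mean, and the mean of the other tumour libraries was 3.18 times below it. CycA (FBgn0000404, chromosome 3L, 11826719 to 11833578) was at 22.1, 20.6 and 25.1 CPM in control, at 7.40 and 6.10 CPM in tumour replicates 1 and 2 and at 89.6 CPM in tumour replicate 3. CycB3, the third mitotic cyclin of the fly, was at 9.55, 8.71 and 9.50, then 3.18 and 1.56, then 35.0 CPM in the same order. The 3 cyclins thus differed 11.3 to 14.7 times between tumour replicate 3 and the mean of the other tumour libraries.

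The phosphatase stg, which activates Cdk1, was at 7.42, 6.17 and 8.23 CPM in control, at 2.31 and 1.81 CPM in tumour replicates 1 and 2 and at 28.2 CPM in tumour replicate 3. The kinase polo, which promotes entry into and passage through mitosis, was at 11.0, 8.98 and 13.4, then 5.11 and 4.33, then 38.2 CPM. Cdk1 itself was at 3.04, 2.89 and 2.19, then 1.52 and 1.90, then 10.9 CPM in this order. All 6 genes of mitotic entry had both tumour replicates 1 and 2 below every control (all genes tested, 25.5%). All 6 also had tumour replicate 3 at least 2 times above every other library (all genes tested, 2.32%). With all libraries their log2 fold changes lay between 0.48 (CycB) and 0.82 (Cdk1), with an SE of 0.75 to 1.16, and none passed (adjusted p = 0.455 to 0.779, edgeR; 0 at an unadjusted p under 0.05, 0 with DESeq2 and 0 with limma-voom). By limma-voom the log2 fold changes of CycA, CycB, CycB3, stg and polo were below 0, at -0.48 (CycB) to -0.02 (polo). Without tumour replicate 3 the log2 fold changes of all 6 were below 0, among them CycA (-1.75 ± 0.18) and CycB (-1.67 ± 0.21). The library left out was set apart for high values that include these 6 genes. These lower values are therefore a description and no test of a decrease.

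Genes of chromosomes, spindle and checkpoint were more mixed. The gene fzy, which encodes the Cdc20 activator of the anaphase-promoting complex and is held back by the spindle checkpoint, was at 3.60, 3.33 and 2.88 CPM in control, at 1.20 and 1.70 CPM in tumour replicates 1 and 2 and at 13.3 CPM in tumour replicate 3. The kinase genes aurA and aurB, whose products act at spindle poles and at centromeres, had 3.32 and 4.52 times the control mean in tumour replicate 3. Their levels were low, at most 2.56 and 1.11 CPM in the other libraries. The kinesin genes Klp61F and ncd, motors of the spindle, had 3.07 and 2.80 times the control mean there, and the checkpoint gene BubR1 2.02 times. By contrast Top2, the topoisomerase that untangles DNA, was at 69.3, 71.7 and 55.0 CPM in control and at 67.1, 64.9 and 88.9 CPM in tumour replicates 1, 2 and 3. The kinase gene Bub1 was at 20.7, 22.1 and 23.7 CPM in control and at 17.3, 22.4 and 27.4 CPM in the tumour libraries. For both the groups overlapped and tumour replicate 3 was at most 1.36 times the control mean. None of these 8 genes passed with all libraries (adjusted p = 0.36 to 0.956, edgeR; 0 at an unadjusted p under 0.05, 0 with DESeq2 and 0 with limma-voom) or without tumour replicate 3.

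**Figure D2:**
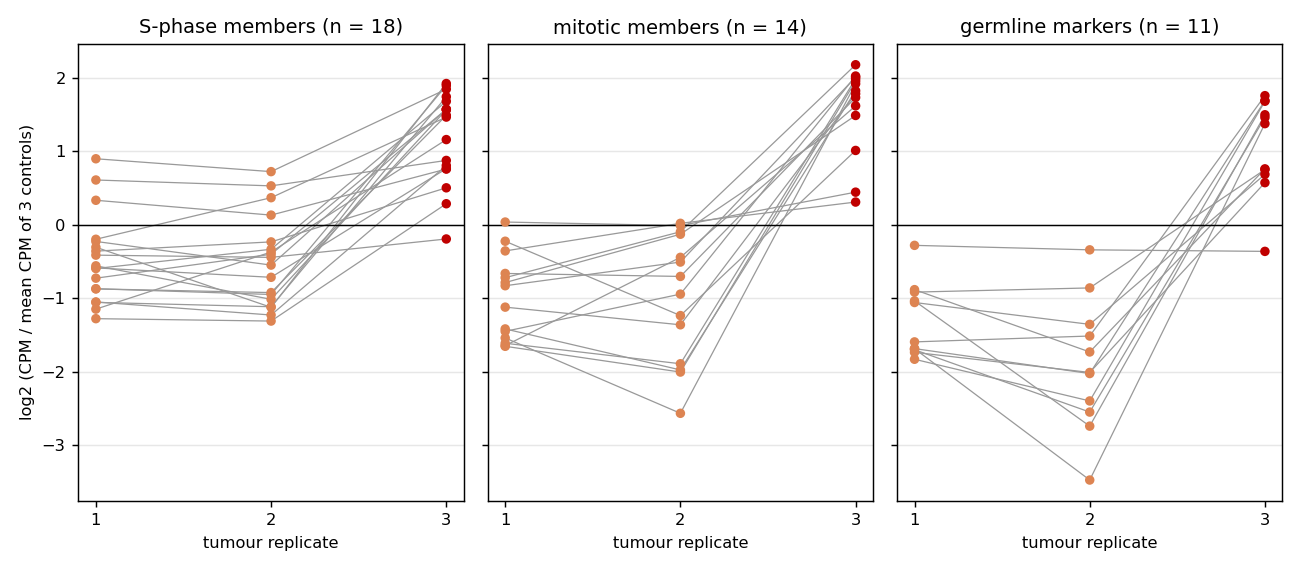
Log2 ratio of each gene's CPM in a tumour library to the mean of 3 control libraries, for S-phase members, mitotic members and germline marker genes; a thin line joins the points of 1 gene, and the libraries have no order. In all panels most genes lie under 0 in tumour replicates 1 and 2 and above 0 in replicate 3.

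Without tumour replicate 3, 5 of 18 S-phase members (dup, dpa, E2f1, CycE and Cdk2) and 5 of 14 mitotic members (CycA, CycB, CycB3, stg and polo) fell, against 10.2% of the 10049 genes tested in that fit. The library left out was set apart for high values that include 20 members, which all genes were not chosen by. These counts are thus a description, and no excess of members among falling genes can be read from them. Only RnrL and RnrS rose, against 9.96%. The sign of the log2 fold change differed between the fits for 10 of the S-phase and 13 of the mitotic members. Without tumour replicate 1 or 2 no mitotic member passed.

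**Figure D3:**
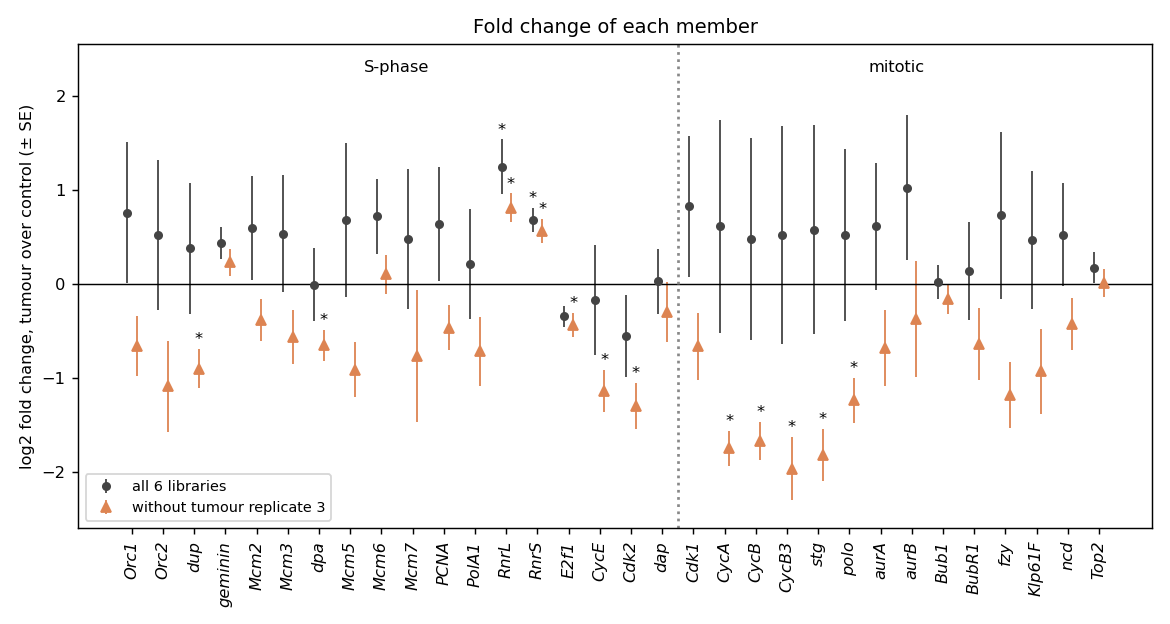
Log2 fold change of tumour over control with its SE for each of 32 members, from all 6 libraries (circles) and without tumour replicate 3 (triangles); an asterisk marks an adjusted p under 0.05 in edgeR's test. The triangles of 13 mitotic members lie on the other side of 0 from their circles, while RnrL and RnrS are above 0 in both fits. Asterisks at triangles below 0 are a description, as the library left out was set apart for high values of members.

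Markers of other cells that a dissection can carry were examined in the same libraries. Of 11 germline markers, 10 were highest in tumour replicate 3, all but tud, against 24.2% of all genes tested. All 11 had tumour replicates 1 and 2 below all controls, against 25.5%. Of the 11, 5 stood at least 2 times above every other library in tumour replicate 3, against 2.32%. The RNA-binding protein gene bru1 was at 14.7, 14.9 and 16.3 CPM in control replicates 1, 2 and 3, at 4.76 and 3.76 CPM in tumour replicates 1 and 2 and at 49.4 CPM in tumour replicate 3. The germline gene otu was at 10.5, 7.49 and 11.1, then 2.72 and 1.84, then 31.0 CPM, and the posterior determinant nanos at 3.90, 2.95 and 3.49, then 1.06 and 0.590, then 9.48 CPM in this order. The summed level of the list was 676 to 818 CPM in control and 556 to 715 CPM in tumour libraries, most of it tud, which was at 524 to 735 CPM. The sum of the other 10 markers was 84.4, 68.0 and 83.2 CPM in control replicates 1, 2 and 3, 30.0 and 24.0 CPM in tumour replicates 1 and 2 and 191 CPM in tumour replicate 3; tud was set apart after its level was seen. No marker of the list was at 0 in any library. With all libraries 0 germline markers passed in edgeR. At an unadjusted p under 0.05, 0 were higher and 1 lower, with 1 lower by DESeq2 and 0 by limma-voom. Without tumour replicate 3, 7 fell, against 10.2% of all genes tested in that fit. This count too is a description, since 5 of the 11 stood out in the library left out.

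Some members and germline markers were also compared with CycB within each library. Per 100 counts of CycB, a library held 32.2 to 41.3 counts of CycA, 10.1 to 13.0 of stg and 10.03 to 16.1 of CycB3. It held 20.7 to 27.5 counts of bru1, 11.8 to 17.0 of otu, 9.72 to 15.1 of ovo and 3.78 to 6.03 of nanos. These 7 ratios varied at most 1.61-fold over 6 libraries (CycB3), whereas the CPM of CycB varied 13.9-fold. Of the other genes of mitotic entry, polo varied 1.68-fold and Cdk1 3.63-fold against CycB, from 3.36 to 12.2 counts per 100. The remaining germline markers varied more than the 4 named, from 2.21-fold for zpg to 14.1-fold for tud. The members whose ratio varied most were E2f1, Bub1, RnrS, Top2 and geminin, whose counts per 100 of CycB varied between 9.01-fold (geminin) and 11.7-fold (E2f1), with the lowest value in tumour replicate 3. The genes compared in this way were chosen after their values were seen. The part of germline RNA in the levels of the members was not tested.

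**Figure D4:**
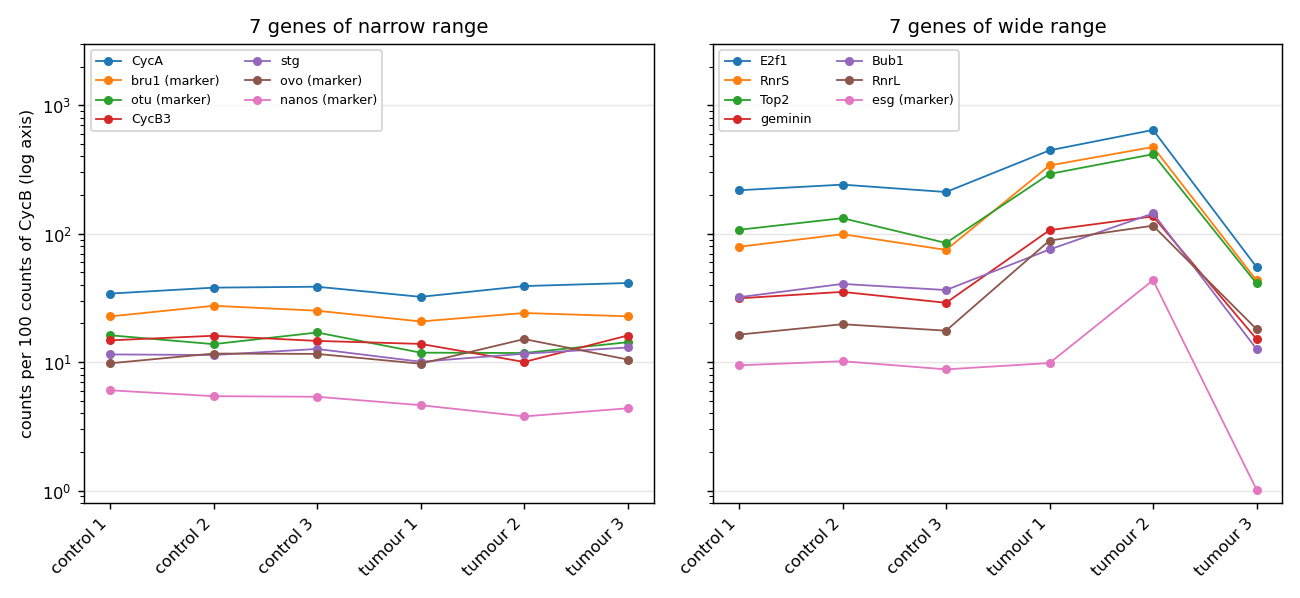
Counts of a gene per 100 counts of CycB in each of 6 libraries, on a log axis; lines join the values of 1 gene, and libraries of a group have no order. The left panel holds 7 genes chosen for a narrow range, such as 20.7 to 27.5 for bru1, and the right panel 7 chosen for a wide one, in which E2f1 runs from 54.9 to 642.

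Markers of further cell types were read in the same libraries, beside 13.0% of all genes tested that passed as lower and 14.8% as higher (edgeR). Of 15 eggshell and follicle markers, 12 fell with all libraries, and their summed level was 134 to 343 CPM in control, 11.1 and 5.58 CPM in tumour replicates 1 and 2 and 2.17 CPM in tumour replicate 3, the lowest of all. Of 16 midgut enzyme genes tested, 14 fell, with 358 to 1028 CPM in sum in control and 15.9 to 89.7 CPM in tumour libraries. The 8 matched progenitor markers summed to 13.1 to 13.5 CPM in control, to 17.5 and 42.8 CPM in tumour replicates 1 and 2 and to 19.6 CPM in tumour replicate 3. Of them esg, the gene whose enhancer drives the transgene, was at 6.10, 5.52 and 5.71 CPM in control and at 2.26, 6.78 and 2.21 CPM in tumour replicates 1, 2 and 3. Delta, a Notch ligand gene, was at 1.95, 1.73 and 1.28 CPM in control and at 0.544, 1.95 and 7.60 CPM in tumour replicates 1, 2 and 3. Sox100B was at 2.41, 2.33 and 2.88 CPM in control and at 7.13, 13.6 and 5.43 CPM in tumour replicates 1, 2 and 3. Sox21a was at 2.03, 3.27 and 2.34, then 4.98, 14.2 and 2.78 CPM in this order. Among the 6 tested, the log2 fold change without tumour replicate 3 was above 0 for 4 and below 0 for 2, esg and Delta. Progenitor markers thus differed among themselves. The sum was highest in tumour replicate 2 and Delta in tumour replicate 3, while esg was at like levels in replicates 1 and 3. Of 6 tested, 1 rose (edgeR; 3 with DESeq2, 2 without tumour replicate 3) and 0 fell. The part of these cells in the levels of the members was not tested. The other lists gave 5 of 10 principal cell, 3 of 6 stellate cell, 3 of 6 fat body, 1 of 5 haemocyte, 1 of 7 muscle, 0 of 5 tracheal (1 at an unadjusted p under 0.05, 0 with DESeq2, 0 with limma-voom) and 1 of 5 enteroendocrine markers as lower in tumour (edgeR). Of the same lists 1 haemocyte and 1 enteroendocrine marker were higher.

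Further genes of the same processes were read from 4 lists. Among 32 other replication genes tested, 2 rose and 0 fell, smaller shares than the 14.8% and 13.0% of all genes tested. Prim1, the catalytic subunit of primase, was at 2.30, 3.84 and 3.19 CPM in control and at 8.08, 5.65 and 7.62 CPM in tumour replicates 1, 2 and 3 (log2 fold change 1.19 ± 0.28, adjusted p = 0.0177, edgeR). Psf1, of the GINS complex that works with the helicase, was at 1.22, 1.49 and 1.12 CPM in control and at 2.42, 2.99 and 2.83 CPM in the tumour libraries (1.10 ± 0.33, adjusted p = 0.0419). In both genes tumour replicate 3 lay between the other tumour libraries, and the groups did not overlap. Cdc6, a loader of the helicase, had instead the order of the licensing members, with 3.72, 3.62 and 3.43 CPM in control, 2.04 and 2.47 CPM in tumour replicates 1 and 2 and 13.98 CPM in tumour replicate 3. Leaving out tumour replicate 1 or either of control replicates 1 and 3 left 0 genes of the list higher, and 1 was without control replicate 2 or tumour replicate 3 (edgeR).

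Among 40 other mitosis genes 0 passed as higher and 0 as lower (edgeR; 2 and 0 at an unadjusted p under 0.05, 0 with DESeq2 or limma-voom). Of them 22 stood at least 2 times above every other library in tumour replicate 3, against 2.32% of all genes tested. Without that library 4 fell (twe, Incenp, feo and asp), a share near the 10.2% of all genes in that fit, given as a description only. Among 10 tested genes of the anaphase-promoting complex, which ends mitosis, 0 passed (edgeR; 3 higher and 0 lower at an unadjusted p under 0.05, 0 with DESeq2 or limma-voom) and 0 stood out in tumour replicate 3. One of these, fzr, which encodes the Cdh1 activator used in the endocycle by which cells become polyploid, was at 31.5, 22.5 and 24.7 CPM in control and at 35.9, 34.2 and 35.5 CPM in tumour libraries (log2 fold change 0.42 ± 0.14, adjusted p = 0.062, edgeR).

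Of 14 tested regulators of the E2F, Rb and Myb-MuvB group, 3 rose and 0 fell, against 14.8% and 13.0% of all genes tested, so that the count that rose is near the background. Caf1-55, a histone-binding subunit shared by several chromatin complexes, was at 23.2, 27.2 and 24.0 CPM in control and at 36.9, 38.4 and 46.4 CPM in tumour libraries (log2 fold change 0.71 ± 0.13, adjusted p = 0.00707, edgeR). The gene mip130, of the Myb-MuvB complex that represses or activates cell cycle genes, was at 21.6, 19.5 and 22.3 and 31.1, 26.3 and 31.6 CPM (0.49 ± 0.13, adjusted p = 0.0246). Cks85A, a small partner of cyclin-dependent kinases, was at 4.81, 5.19 and 4.37 and 10.3, 7.71 and 8.88 CPM (0.90 ± 0.21, adjusted p = 0.0153), but 73.7% of its exon length overlaps genes on the other strand. The groups did not overlap for any of the 3. Without control replicate 3 or tumour replicate 1, 1 gene of this list passed as higher. The median log2 fold change was 0.38 for the replication, 0.39 for the mitosis, 0.19 for the anaphase-promoting complex and 0.41 for the regulator list, against 0.08 over all genes, and 0.07, -0.31, 0.11 and 0.11 without tumour replicate 3.

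**Figure D5:**
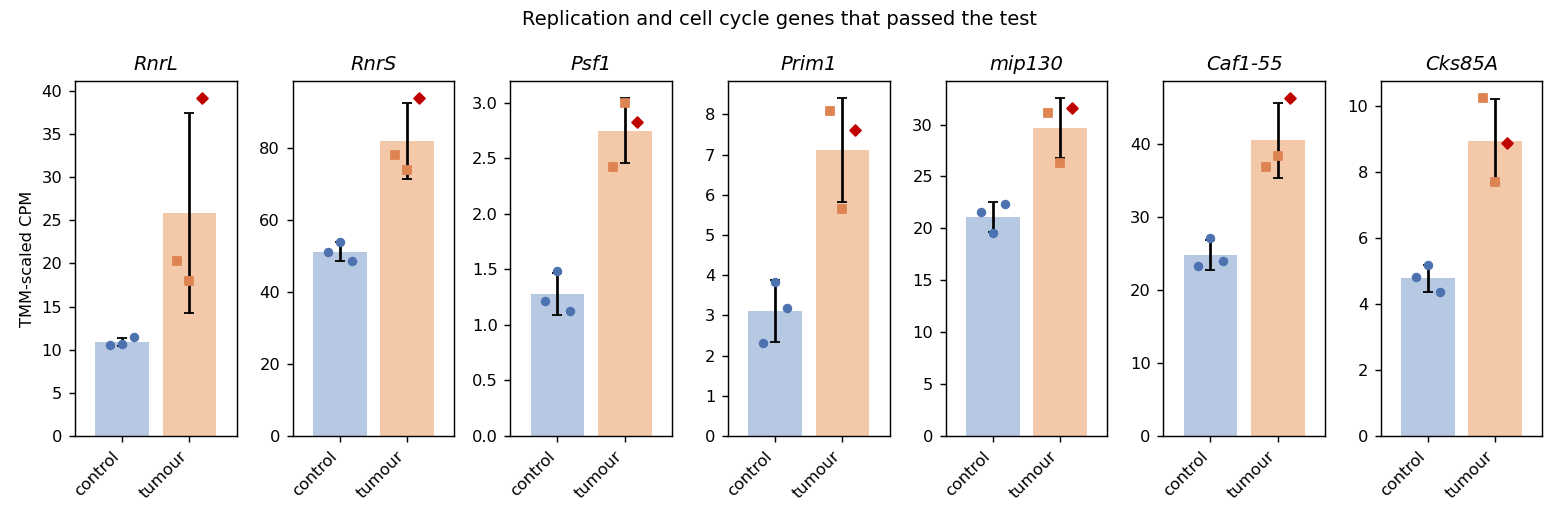
TMM-scaled CPM of the 7 members and pathway genes that passed the test with all libraries; bars give the mean of 3 libraries with SD, points the libraries, with a diamond for tumour replicate 3. All tumour points lie above all control points, and the diamond stands apart from the squares for RnrL.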

How the data were processed

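Poly-A-selected RNA of 3 control and 3 tumour libraries was sequenced, and the deposited values are raw counts of reads for each gene. The 3 tools, HTSeq, Cufflinks and TopHat, appear without versions or roles in the submitters' processing notes. No source used here gives the build, the annotation or the strandedness. Symbols came from a FlyBase identifier table (17552 of 17611 identifiers) and coordinates and exon lengths from Ensembl BDGP6, which need not be the build on which reads were counted. Of 238 listed symbols 3 were not matched.

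Genes were filtered with filterByExpr (minimum count 10, minimum total 15), scaled by TMM and tested for tumour against control with edgeR's robust quasi-likelihood test, two-sided, with Benjamini-Hochberg adjustment over the 9789 genes and calls at 0.05. The SE was taken as the log2 fold change over the root of the F statistic. The coefficient of variation between libraries that edgeR estimated (its BCV) was 30.8%; it may be technical in part or whole. Replicates differed by far more than counting noise (chi-square per degree of freedom 71.0 to 131). The script was tested on simulated data. Software was Python 3.11.15 and R 4.3.3 with DESeq2 1.42.0, limma 3.58.1 and edgeR 4.0.16. Alternatives were RLE, upper quartile and library-total scaling, no filter, 5 CPM in 3 libraries, a replicate block, DESeq2, limma-voom, a threshold of 0.01 and leaving out each library. The named genes were all 32 members, up to 4 genes that passed with the smallest adjusted p per pathway list, and yki and esg; other genes were named after their values were seen. Members and lists were chosen with earlier results of these data known.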

Additional observations from a re-analysis of the deposited data

How the results depend on the processing

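RnrS was called as higher in every alternative run, and RnrL in all but 4 (without control replicate 1, 2 or 3, and at an adjusted p of 0.01, where 1 S-phase gene was left). The S-phase genes called lower were 1 with DESeq2, RLE, upper quartile or the filter of 5 CPM, and 0 to 5 in fits without 1 library; those called higher were 1 to 2 in such fits and 3 with library totals alone. Mitotic genes called lower were 0 to 5 in fits without 1 library, and 0 in all other settings. With library totals alone, 3079 genes were higher and 830 lower, against 1453 and 1273, together with 7 other replication, 3 other mitosis, 3 anaphase-promoting complex and 6 regulator genes as higher. At an adjusted p of 0.01, 598 genes were higher and 599 lower, with 0 other replication and 1 regulator gene as higher. In fits without 1 library, genes higher numbered 865 (without tumour replicate 1) to 1223, with 887 without control replicate 3, and genes lower 882 to 1141. Other replication genes called higher were 1 with RLE, upper quartile, no filter or 5 CPM and 0 to 2 without 1 library. Those called lower were 1 with DESeq2 and 0 to 3 without 1 library. In the same fits 0 to 1 other mitosis genes were higher (1 without control replicate 2) and 0 to 4 lower, 0 to 1 anaphase-promoting complex genes were higher (1 without control replicate 1 or 2 or tumour replicate 1, and 1 with no filter), and 1 to 3 regulator genes were higher. The samples share a replicate number only (r = 0.0824, -0.0833 and 0.058 between deviations of same-numbered libraries, and not every library correlated best with its own number). With the replicate block 1 other replication gene was higher and 1 lower, 1 other mitosis and 1 anaphase-promoting complex gene were higher, and all genes gave 1345 higher and 1193 lower; no call of a member changed. Log2 fold changes that changed sign, none of them called in either fit, were Orc2 -0.19, dup -0.10, PolA1 -0.09, CycA -0.58, CycB -0.61, CycB3 -0.81, stg -0.63, polo -0.24, Bub1 -0.01, BubR1 -0.14, fzy -0.19, Klp61F -0.16 with the replicate block, CycA -0.34, CycB -0.48, CycB3 -0.46, stg -0.28, polo -0.02, BubR1 -0.04 with limma-voom, dap -0.05, Bub1 -0.06 with DESeq2, dap -0.05, Bub1 -0.06 with RLE, dap -0.02, Bub1 -0.04 with upper quartile, dap -0.01, Bub1 -0.03 with 5 CPM, dpa 0.31, CycE 0.17 with library totals and dpa 0.00 with no filter. In fits without 1 library the sign changed at least once, in most without tumour replicate 3, over these ranges: Bub1 -0.17 to 0.11, BubR1 -0.64 to 0.53, Cdk1 -0.67 to 1.21, CycA -1.75 to 1.11, CycB -1.67 to 0.97, CycB3 -1.97 to 1.05, CycE -1.14 to 0.16, Klp61F -0.93 to 0.86, Mcm2 -0.39 to 0.94, Mcm3 -0.57 to 0.85, Mcm5 -0.91 to 1.10, Mcm7 -0.77 to 0.88, Orc1 -0.66 to 1.21, Orc2 -1.09 to 0.94, PCNA -0.47 to 0.96, PolA1 -0.72 to 0.54, aurA -0.69 to 0.99, aurB -0.38 to 1.38, dap -0.30 to 0.37, dpa -0.66 to 0.25, dup -0.90 to 0.75, fzy -1.18 to 1.16, ncd -0.43 to 0.83, polo -1.24 to 0.97, stg -1.82 to 1.08. The cause was not tested.

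Limits of depth fall on the low genes: Mcm7, aurB and Klp61F had 14, 20 and 29 counts in their lowest library. With 3 libraries a group, and 1 of them apart, the SE of the mitotic entry genes was 0.75 to 1.16 on the log2 scale.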

Other observations

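Over the whole table, 108 genes tested had at least 10 CPM in tumour replicate 3 and at least 2 times the level of the highest other library there. Of these, 32 belonged to the members or the 4 pathway lists and 4 to the germline markers. Of the 9789 genes tested, 32 were members, 32, 40, 10 and 14 were in the 4 pathway lists and 11 were germline markers. Among the 108 genes, 74 (68.5%) had tumour replicates 1 and 2 below all controls, against 25.5% of all genes tested. By the ratio to the next library the first was krimp, a gene of the piRNA pathway, at 2.79, 2.52 and 2.52 CPM in control, 1.61 and 2.36 CPM in tumour replicates 1 and 2 and 15.2 CPM in tumour replicate 3. It was followed by dah, Boot, Klp67A, tum, Chd3, spn-E, CG4570, gwl, swa, mtrm and Cdc6, at 3.76 to 4.76 times the next library. The piRNA pathway gene spn-E, the oocyte gene swa, and mtrm, which encodes an inhibitor of Polo in the oocyte, were thus among these genes, as were the mitotic kinesin gene Klp67A and gwl, which encodes the mitotic kinase Greatwall. The most abundant of all was dhd, a thioredoxin gene of the female germline, at 72.7, 57.2 and 66.8 CPM in control, 30.9 and 15.8 CPM in tumour replicates 1 and 2 and 245 CPM in tumour replicate 3, followed by CycB. These genes were chosen after their values were seen, and no test was made on them.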
